A study of Mus musculus with 8 samples.

Results

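The genes described here build the proteasome and load its products onto MHC class I. They were taken by name from the authors' gene table of a microarray study of IRF-8, a DNA-binding protein related to the factors of the interferon response, which blood progenitors need to become dendritic cells. All gene symbols beginning with Psma, Psmb, Psmc, Psmd or Psme were included, with Tap1, Tap2, Tapbp, B2m, H2-K1, Erap1 and Pdia3, which gave 48 members of 18132 genes. No gene in that table carried the symbol H2-D1, Psma8, Psmb11 or Psmd3, so these were not analysed here. Nlrc5 stood in the table under an older name, was not a member by the naming rule, and is given beside the class I genes. Of the 48 members, 47 could be tied to a probe on the array and 46 were above background (detection p under 0.05) on at least 2 arrays, 44 of them on all 8. The member without a probe was Tapbp, and Psma3 was detected on 0 arrays. One member, Psmc3ip, carries the prefix but encodes a cofactor of meiotic recombination and not a proteasome subunit.

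The study compared bone marrow progenitors of C57BL/6 mice in 4 groups of 2 Illumina MouseRef-8 arrays each. All-lymphoid progenitors (ALP) were sorted as IL7Rα+ Flk2+ c-kit+ cells without lineage markers, Ly6D or B220. Common myeloid progenitors (CMP) were sorted as CD34+ Flk2+ cells, high in c-kit and without Sca-1, CD11c, CD16/32, CD115 or lineage markers. Each was taken from mice labelled IRF-8 wild type or IRF-8 knockout, and RNA from the sorted cells was amplified before hybridisation. Age, sex, how the knockout was made, and whether the 2 arrays of a group came from separate animals were not given in the labels, so p-values measure the spread between arrays, which may be technical.

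The proteasome is a barrel of alpha and beta rings, the 20S core, capped by the 19S particle, which unfolds ubiquitinated proteins with its ATPases. Cells exposed to interferon and many blood cells exchange the catalytic subunits Psmb5, Psmb6 and Psmb7 for Psmb8, Psmb9 and Psmb10, which makes the immunoproteasome, whose cuts favour peptides that bind MHC class I. Psme1 and Psme2 form the interferon-inducible PA28 cap, Tap1 and Tap2 pump peptides into the endoplasmic reticulum, Erap1 trims them there, and Tapbp and Pdia3 help load them onto class I chains paired with B2m.

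Promoters are shown for the interferon-inducible pairs because IRF-8 belongs to the family that binds the interferon-stimulated response element. They are RefSeq sequences on GRCm38.p6, and matches to 3 motifs are in capitals. Psmb9 and Tap1 start 225 bases apart on opposite strands of chromosome 17, so a single stretch serves both, at chr17:34187331-34187555 on the plus strand, and it holds none of the 3 motifs. The 250 bases before the start of Psmb8 lie at chr17:34197945-34198194, plus strand, those of Psme1 at chr14:55578244-55578493, plus strand, and those of Psme2 at chr14:55591102-55591351, minus strand. The last line is the stretch just after the start of Psme1, chr14:55578499-55578524, where its matches lie.
Psmb9 and Tap1: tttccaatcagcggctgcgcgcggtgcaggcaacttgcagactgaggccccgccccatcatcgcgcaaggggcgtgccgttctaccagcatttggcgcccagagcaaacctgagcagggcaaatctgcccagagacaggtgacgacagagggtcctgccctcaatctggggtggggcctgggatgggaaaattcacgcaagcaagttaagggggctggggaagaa
Psmb8: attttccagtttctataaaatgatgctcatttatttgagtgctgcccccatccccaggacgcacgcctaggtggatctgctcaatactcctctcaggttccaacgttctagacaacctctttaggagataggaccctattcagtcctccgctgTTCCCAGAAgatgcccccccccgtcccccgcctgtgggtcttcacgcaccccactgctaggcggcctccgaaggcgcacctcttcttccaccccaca
Psme1: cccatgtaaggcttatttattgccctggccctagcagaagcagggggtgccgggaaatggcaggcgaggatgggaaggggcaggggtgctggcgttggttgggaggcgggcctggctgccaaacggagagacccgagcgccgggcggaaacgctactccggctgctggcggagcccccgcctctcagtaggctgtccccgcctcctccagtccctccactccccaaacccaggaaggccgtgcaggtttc
Psme2: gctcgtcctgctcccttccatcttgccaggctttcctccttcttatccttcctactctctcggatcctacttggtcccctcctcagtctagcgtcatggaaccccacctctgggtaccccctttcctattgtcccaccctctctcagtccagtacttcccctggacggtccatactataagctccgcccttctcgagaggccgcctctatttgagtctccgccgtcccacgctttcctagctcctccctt
Psme1, after the start: gtgcTTTCGCTTTCCCTTCCcgctgc

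The motifs searched on both strands, from 250 bases before to 50 after each start, were GAAA and GAAA with NN, any 2 bases, between them (the interferon-stimulated response element core), GGAA and GAAA with the same gap (an ETS-IRF composite) and TTCNNNGAA (a STAT site). Windows were available for 42 member genes. The first occurred in 3.44% of 32851 windows and in 6 members, B2m, Erap1, Psmb3, Psmd4, Psmd9 and Psme1. The second occurred in 2.72% of windows and in 2 members, Psmc2 and Psme1, where it overlaps the first, and the third in 8.3% of windows and in 2 members, Psmb8 and Psmd2. In Psme1 the first match ran from base 10 to base 19 after the start and the second from base 16 to base 25. These matches describe the letters and were not tested for binding.

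Levels below are log2 intensities after background correction and quantile normalisation, and changes are differences of group means with the standard error (SE) of a limma fit over 12781 features. None of the 46 members passed an adjusted p of 0.05 in any comparison. In knockout against wild-type ALP the fit called 0.125% of all features, in knockout against wild-type CMP 0.11%, in the difference between both knockout effects 0.00782%, in wild-type ALP against wild-type CMP 1.46%, and in knockout ALP against knockout CMP 0.0548%. An unadjusted p under 0.05 was reached by 3 members in the ALP comparison, where 13.4% of all features reached it, and by 2 in the CMP comparison, against 5.5% of all. It was reached by 1 member in the difference of effects against 7.04%, by 2 in wild-type ALP against CMP against 15%, and by 0 in knockout ALP against CMP against 5.84%. The members' values are therefore given as measurements, and the changes below did not pass the test unless stated. RNA came from sorted populations, in which fewer cells of a type and less RNA per cell cannot be told apart.

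Between 43.3% and 49.6% of probes were detected on each array. The 2 wild-type ALP arrays stood apart: they correlated with each other at 0.836 over the features, against 0.936 to 0.947 in the other groups, and array 2 of wild-type ALP had the fewest probes detected. For members whose array values and ALP change are both printed, the change without 1 of them is given where its sign turned, or where a change of over 0.2 in size moved by more than 1.5 times. The probe for Irf8 itself stayed bright in the knockout and differed in opposite directions in ALP and CMP. It read 10.97 and 10.89 in wild-type and 11.40 and 11.17 in knockout ALP. In CMP it read 11.06 and 10.96 in wild type and 10.83 and 10.81 in knockout. The changes were 0.36 ± 0.26 and -0.19 ± 0.26, with adjusted p of 0.611 and 0.981. Which part of the transcript the probe reads relative to the deletion was not given. Il7r and Rag1, which mark lymphoid progenitors, were detected on all 4 ALP arrays and on 0 CMP arrays, the first of them a marker of the sort.

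The 3 immunoproteasome subunits did not differ between genotypes in a common direction. Psmb8, the immunoproteasome's chymotrypsin-like subunit, read 9.48 and 9.47 on the wild-type and 9.42 and 9.16 on the knockout ALP arrays, and 9.80 and 9.47 on the wild-type and 9.22 and 9.24 on the knockout CMP arrays. All 4 knockout values lay below all 4 wild-type values, although the nearest pair in ALP almost touched. Its change was -0.18 ± 0.28 (SE) in ALP, adjusted p 0.819, and -0.41 ± 0.28 in CMP, adjusted p 0.953.
Psmb9 went the other way. It read 10.97 and 10.90 in wild-type and 11.26 and 11.34 in knockout ALP, and 10.95 and 11.13 in wild-type and 11.20 and 11.27 in knockout CMP. Every knockout array was above every wild-type array, an arrangement found in 3.24% of all features and in this single member. The change was 0.37 ± 0.26 in ALP, adjusted p 0.594, and 0.19 ± 0.26 in CMP, adjusted p 0.980, and the CMP value turned to -0.05 when arrays were scaled by their medians.
Psmb10, the trypsin-like subunit, read 10.52 and 10.39 in wild-type and 10.31 and 10.17 in knockout ALP, and 10.62 and 10.59 in wild-type and 10.63 and 10.03 in knockout CMP. In ALP both knockout values were lower, with a change of -0.22 ± 0.30. In CMP a single knockout array was low, and without it the change of -0.27 ± 0.30 became 0.03. A second Psmb10 probe, detected on 8 arrays, gave -0.34 in ALP and -0.05 in CMP.

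**Figure D1:**
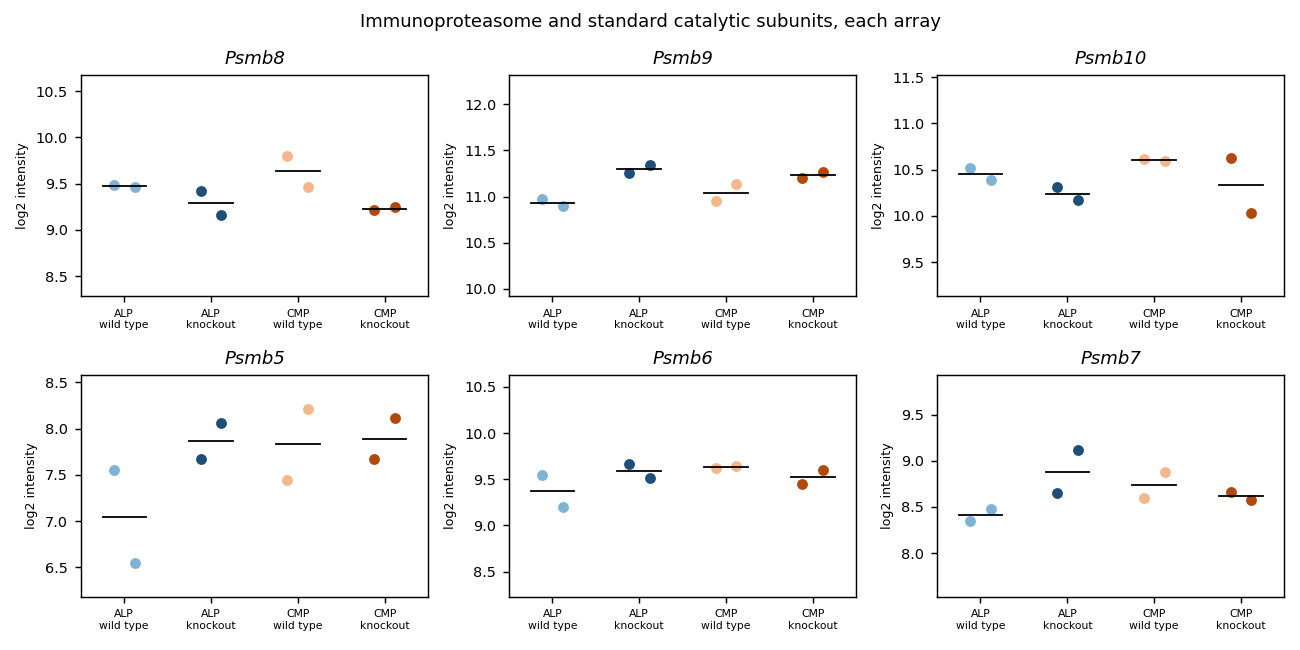
Log2 intensity (vertical axis, a span of at least 2.4 log2 units in each panel) of the immunoproteasome subunits Psmb8, Psmb9 and Psmb10 and the standard subunits Psmb5, Psmb6 and Psmb7 in the 4 groups; points are the 2 arrays of a group and black lines their mean. The knockout points of Psmb9 lie above and those of Psmb8 below the wild-type points of both progenitors, and Psmb5 is lowest on a wild-type ALP array, at 6.55.

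Of the standard catalytic subunits, Psmb5, the chymotrypsin-like one, varied most. It read 7.55 and 6.55 in wild-type and 7.68 and 8.06 in knockout ALP, and 7.45 and 8.22 in wild-type and 7.67 and 8.12 in knockout CMP. The low wild-type ALP array 2 set it apart, and the change in ALP, 0.82 ± 0.44 with adjusted p 0.471, was 0.32 without that array and 1.32 without array 1. Psmb6, the caspase-like subunit, read 9.54 and 9.20 in wild-type and 9.66 and 9.51 in knockout ALP, and 9.62, 9.64, 9.45 and 9.60 on the CMP arrays, wild type first. Psmb7, the trypsin-like subunit, read 8.34 and 8.48 in wild-type and 8.65 and 9.11 in knockout ALP, and 8.59, 8.88, 8.66 and 8.58 on the CMP arrays in the same order. The ALP genotypes overlapped for Psmb6, with a change of 0.21 ± 0.28 that was 0.39 without the wild-type ALP array 1 and 0.04 without array 2. They did not overlap for Psmb7, where the change was 0.47 ± 0.29, adjusted p 0.536. In the authors' deposited gene table Psmb7 read 8.58 and 8.37 in wild-type and 8.55 and 8.47 in knockout ALP, with overlap, and the same fit on that table gave 0.04.

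The balance of the immunoproteasome against the standard subunits was followed as the mean of Psmb8, Psmb9 and Psmb10 minus the mean of Psmb5, Psmb6 and Psmb7 on each array. Probes differ in brightness, so this difference is read only between arrays. It was 1.84 and 2.18 in wild-type and 1.67 and 1.33 in knockout ALP, and 1.90 and 1.48 in wild-type and 1.75 and 1.42 in knockout CMP. Both knockout ALP arrays were below both wild-type ALP arrays, while the CMP groups overlapped. The difference between genotypes was -0.51 in ALP and -0.11 in CMP, where the pooled SD between arrays of a group was 0.254. The immunoproteasome mean was 10.32 and 10.25 in wild-type and 10.33 and 10.22 in knockout ALP, whereas the standard mean was 8.48 and 8.07 against 8.66 and 8.89, so the gap in ALP lay in the standard subunits. Leaving out the low wild-type ALP array 2 took the ALP difference to -0.35. The score was not tested, because its genes were chosen with results known.

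The activator genes Psme1 and Psme2, which encode the 2 chains of PA28, differed from each other. Psme2 read 6.41 and 6.19 in wild-type and 5.50 and 5.52 in knockout ALP, and 6.79 and 6.83 in wild-type and 5.91 and 5.65 in knockout CMP. Every knockout array was below every wild-type array in both progenitors, with the genotypes well separated. The probe was detected on all 8 arrays but was dim in knockout, close to the detection limit. The lowest detected signal on the knockout CMP arrays averaged 5.48. The change was -0.79 ± 0.27 in ALP, unadjusted p 0.0196 and adjusted p 0.270, and -1.03 ± 0.27 in CMP, unadjusted p 0.00552 and adjusted p 0.527. Across the other settings it ranged from -1.28 to -0.27 in ALP and from -1.51 to -0.38 in CMP, always below 0, and the smallest adjusted p was 0.172 in ALP and 0.221 in CMP. The mouse genome holds near-identical copies of Psme2, so what its probe reads is uncertain.
Psme1 read 10.67 and 10.63 in wild-type and 11.16 and 10.73 in knockout ALP, and 10.78, 10.63, 10.76 and 10.87 on the CMP arrays, wild type first. The ALP groups did not overlap and the CMP groups did, with changes of 0.29 ± 0.28 and 0.11 ± 0.28, the latter -0.16 after median scaling. Its second probe gave 0.19 and 0.06. Psme4, the PA200 cap of the nucleus, read 8.24 and 8.55 in wild-type and 7.90 and 8.15 in knockout ALP, and 8.69, 8.41, 7.98 and 8.09 on the CMP arrays, with a change in ALP of -0.37 ± 0.28 that was -0.22 without the wild-type ALP array 2. Its second, dimmer probe gave changes of opposite sign, 1.11 and 0.47. Psme3, the nuclear PA28 gamma, differed by -0.17 ± 0.33 in ALP and -0.11 ± 0.33 in CMP.

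The transporter genes were uneven between arrays. Tap1 read 7.24 and 6.52 in wild-type and 8.39 and 7.61 in knockout ALP, and 7.47 and 6.76 in wild-type and 6.99 and 8.44 in knockout CMP. Tap2 read 9.15 and 7.95 in wild-type and 9.16 and 9.0003 in knockout ALP, and 8.87 and 8.51 in wild-type and 8.90 and 9.56 in knockout CMP. The wild-type ALP array 2 was the lowest of the 8 arrays for both genes, and the knockout CMP array 2 the highest. Tap1 differed by 1.12 ± 0.55 in ALP, adjusted p 0.438, a value that was 0.77 without the wild-type ALP array 2 and 0.73 without the knockout ALP array 1. In CMP it differed by 0.60 ± 0.55, which was -0.12 without the knockout CMP array 2. Tap2 differed by 0.53 ± 0.44 in ALP, which was -0.07 without the wild-type ALP array 2 and 1.12 without array 1, and by 0.54 ± 0.44 in CMP.

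H2-K1, a classical class I heavy chain, read 8.81 and 8.91 in wild-type and 9.23 and 9.14 in knockout ALP, and 8.41 and 8.40 in wild-type and 8.71 and 9.14 in knockout CMP. Knockout was above wild type in both progenitors without overlap, as for Psmb9, an arrangement found in 6.18% of all features and in 2 members. The change was 0.33 ± 0.28 in ALP, adjusted p 0.662, and 0.52 ± 0.28 in CMP, adjusted p 0.953. Class I heavy chain genes are close in sequence, so its probe may read relatives as well. Among those relatives, H2-Q7 read 8.62 and 8.61 in wild-type and 9.02 and 9.60 in knockout CMP. H2-T23 read 10.75 and 10.71 against 11.01 and 11.70. Their changes were 0.69 ± 0.31 and 0.63 ± 0.34, with adjusted p of 0.939 and 0.953. These were the 2 largest CMP changes among 15 other class I pathway genes tested, of which 7 were above and 8 below 0, with a median of -0.07. For H2-K1, H2-Q7, H2-T23, Tap1 and Tap2 alike, the knockout CMP array 2 read higher than array 1. That array also had the brightest raw signal, a median of 233.3 against 163.8 to 180.5 on the others; its part in these values was not tested.

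B2m, the light chain, lay between 11.92 and 12.10 on all 8 arrays, and its changes were -0.03 ± 0.26 in ALP, or 0.05 without the wild-type ALP array 2, and -0.07 ± 0.26 in CMP. Pdia3 read 9.17 and 8.61 in wild-type and 9.39 and 8.97 in knockout ALP, and 9.34, 9.23, 9.20 and 8.92 on the CMP arrays, with changes of 0.29 ± 0.32 and -0.23 ± 0.32. The ALP value was 0.01 without the wild-type ALP array 2 and 0.56 without array 1. Erap1 read 5.75 and 6.51 in wild-type and 5.55 and 5.14 in knockout ALP, where a single knockout array detected it, and 5.59, 5.94, 5.81 and 5.71 on the CMP arrays. Its change in ALP was -0.78 ± 0.35, adjusted p 0.394, and -0.40 without the wild-type ALP array 2, but a second probe, detected on 3 arrays, gave -0.06. In the authors' deposited gene table, on their own log2 scale, Tapbp read 11.12 and 10.87 in wild-type and 11.48 and 11.44 in knockout ALP, and 11.54 and 11.53 in wild-type and 11.33 and 11.27 in knockout CMP. The knockout values were the higher ones in ALP and the lower ones in CMP. Nlrc5, the transactivator of class I genes, read 8.70 and 10.52 in wild-type and 9.68 and 8.62 in knockout ALP, and 8.38, 8.13, 8.29 and 9.18 on the CMP arrays. Its genotypes overlapped in both progenitors, with changes of -0.46 ± 0.64 and 0.48 ± 0.64.

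**Figure D2:**
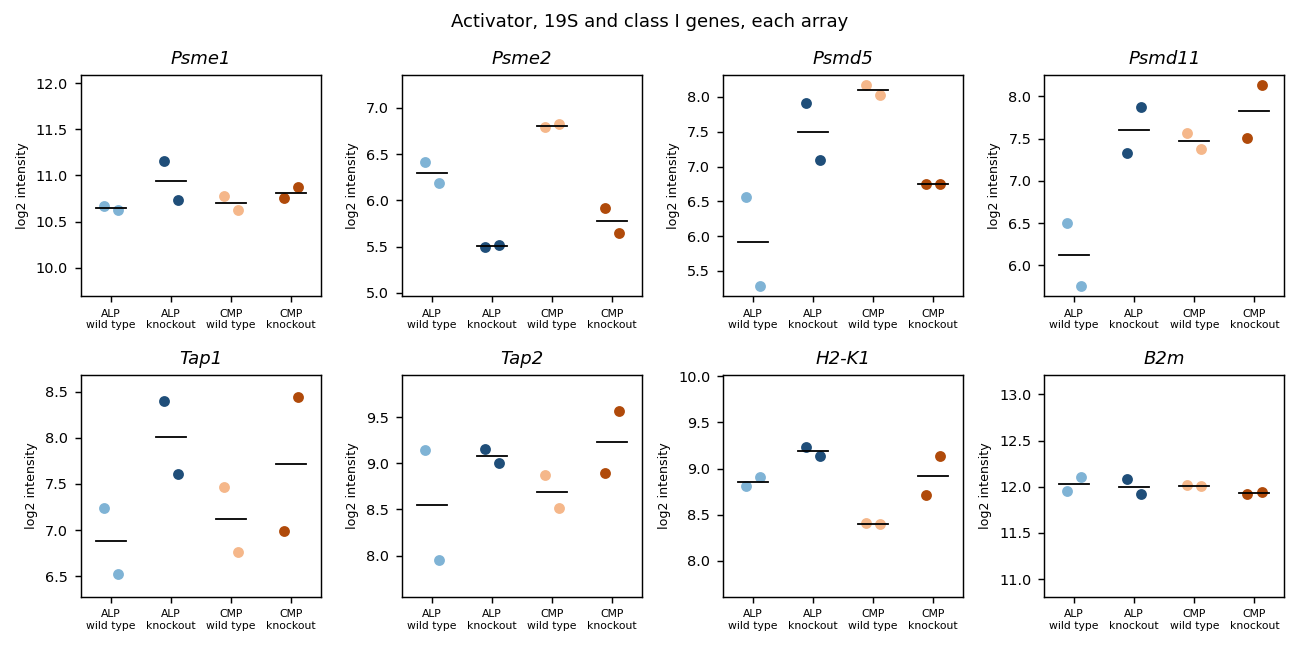
Log2 intensity (vertical axis, a span of at least 2.4 log2 units in each panel) of Psme1, Psme2, Psmd5, Psmd11, Tap1, Tap2, H2-K1 and B2m in the 4 groups, drawn as points for the 2 arrays and a black line for the mean. Psme2 is lower on the knockout arrays of both progenitors, Tap1 and Tap2 are highest on a knockout CMP array, at 8.44 and 9.56, and B2m is level.

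In the 19S particle the largest differences were in Psmd5 and Psmd11. Psmd5, a chaperone that helps assemble the ATPase ring, read 6.56 and 5.28 in wild-type and 7.91 and 7.10 in knockout ALP, and 8.18 and 8.03 in wild-type and 6.74 and 6.75 in knockout CMP. Knockout was higher in ALP and lower in CMP, without overlap in either, and the wild-type ALP array 2 did not detect the probe above background. The change was 1.58 ± 0.46 in ALP, unadjusted p 0.00988 and adjusted p 0.224, and -1.35 ± 0.46 in CMP, unadjusted p 0.0204 and adjusted p 0.759. The difference between these effects was 2.94 ± 0.66, unadjusted p 0.00231 and adjusted p 0.396. Without the wild-type ALP array 2 the ALP change was 0.94. Across the settings that kept all arrays it ranged from 0.69 to 1.58 in ALP and from -1.49 to -0.54 in CMP. A second Psmd5 probe was detected on 0 arrays.
Psmd11, a scaffold subunit of the lid, read 6.50 and 5.75 in wild-type and 7.33 and 7.88 in knockout ALP, and 7.57, 7.37, 7.50 and 8.14 on the CMP arrays. Only the wild-type ALP arrays were low. The change was 1.48 ± 0.39 in ALP, unadjusted p 0.00554 and adjusted p 0.198, and 0.35 ± 0.39 in CMP. The ALP value ranged from 0.67 to 1.54 across the settings that kept all arrays. Psmd1, the large scaffold of the base, read 7.91 and 8.06 in wild-type and 6.77 and 7.59 in knockout CMP, a change of -0.80 ± 0.35 with adjusted p 0.928, and 6.96, 7.42, 7.35 and 7.50 on the ALP arrays. Its CMP change was -0.39 without the knockout CMP array 1 and -1.21 without array 2. When the wild-type ALP array 1 was left out, so that array 2 stood alone for its group and was assumed to vary like the other groups, Psmd5, Psmd11 and Psmd6, another lid subunit, passed in the ALP comparison, with changes of 2.22, 1.85 and 1.53 and adjusted p of 0.0240, 0.0389 and 0.0416. The value for Psmd5 is then set against a single array that did not detect it. Psmd6 has a second probe, detected on 8 arrays, whose genotypes overlapped in ALP. Over all arrays its ALP change was 0.23, against 0.83 for the probe used. No member passed under any other alternative in that comparison.

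Of the 19S non-ATPase genes, 11 of the 13 measured were above 0 in knockout against wild-type ALP, with a median of 0.38, against a median of 0.016 over all features and 51.4% of features above 0. In CMP 6 of the 13 were above 0, with a median of -0.26. The 7 genes of the ATPase list divided evenly, with 3 above 0 in each progenitor and medians of -0.04 and -0.04. Within it, Psmc3 read 8.33 and 9.37 in wild-type and 9.30 and 9.37 in knockout ALP, and 9.33, 9.11, 8.79 and 9.75 on the CMP arrays, wild type first. Its change of 0.49 ± 0.45 in ALP came with a wide gap between the wild-type arrays, and was -0.03 without array 1 and 1.01 without array 2 of that group. Psmc4 read 8.45 and 8.41 in wild-type and 7.94 and 8.11 in knockout CMP, a change of -0.40 ± 0.35, and 8.82, 7.92, 8.34 and 8.11 on the ALP arrays. Its CMP groups did not overlap and its ALP groups did, and its ALP change of -0.14 ± 0.35 was 0.31 without the wild-type ALP array 1. Psmc5 read 9.41, 9.24, 9.53 and 9.26 on the ALP arrays and 9.67, 9.44, 9.52 and 9.41 on the CMP arrays. Its changes were 0.07 ± 0.28, or -0.02 without the wild-type ALP array 2, and -0.09 ± 0.28. A second Psmc5 probe, detected on 8 arrays, gave 0.33 in ALP and -0.28 in CMP. Psmc3ip, which is no proteasome gene, read 7.97, 8.42, 7.79 and 7.91 on the ALP arrays, with a change of -0.35 ± 0.31 in ALP that was -0.12 without the wild-type ALP array 2 and -0.57 without array 1. On the CMP arrays both knockout values of Psmc3ip lay between the wild-type values of 8.31 and 7.79. The groups overlapped for Psmc5 in both progenitors and for Psmc3ip in CMP, and not for Psmc3ip in ALP.

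The structural subunits of the 20S core follow. In the alpha ring, Psma1 read 6.46 and 6.24 in wild-type and 6.15 and 6.12 in knockout ALP, and 6.76 and 6.50 in wild-type and 6.21 and 5.92 in knockout CMP. All 4 knockout arrays were below all 4 wild-type arrays, with changes of -0.21 ± 0.28 and -0.57 ± 0.28 and adjusted p of 0.786 and 0.945. The ALP value was -0.10 without the wild-type ALP array 1 and -0.32 without array 2. Psma2 read 12.02 and 11.86 in wild-type and 11.65 and 11.69 in knockout ALP, a change of -0.27 ± 0.26, and 11.83, 11.86, 11.86 and 11.69 on the CMP arrays. Its knockout values were the lower ones in ALP and overlapped with wild type in CMP. Psma6 read 7.44 and 7.47 in wild-type and 7.14 and 7.34 in knockout CMP, a change of -0.21 ± 0.26, and 6.99, 7.17, 7.12 and 7.21 on the ALP arrays. The 6 measured alpha genes ranged from -0.27 to 0.15 in ALP and from -0.57 to 0.07 in CMP. Among the beta subunits, Psmb2 read 10.05 and 10.16 in wild-type and 10.43 and 10.69 in knockout ALP, a change of 0.46 ± 0.31 without overlap. On the CMP arrays it read 10.43, 10.44, 10.40 and 11.02, where a single knockout array was high. In the authors' deposited gene table, on their own log2 scale, Psmb2 read 10.40, 10.48, 10.37 and 10.60 on the CMP arrays. Psmb3 read 9.74 and 8.90 in wild-type and 9.54 and 9.88 in knockout ALP, and 10.02, 10.09, 10.01 and 10.01 on the CMP arrays. Its change of 0.39 ± 0.34 in ALP was -0.03 without the wild-type ALP array 2 and 0.81 without array 1. Psmb4 read 11.11, 11.11, 10.84 and 11.22 on the ALP arrays and 11.42, 11.53, 11.45 and 11.38 on the CMP arrays, with overlap in both and changes of -0.08 ± 0.27 and -0.06 ± 0.27. The 4 beta genes ranged from -0.08 to 0.46 in ALP and from -0.06 to 0.27 in CMP.

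**Figure D3:**
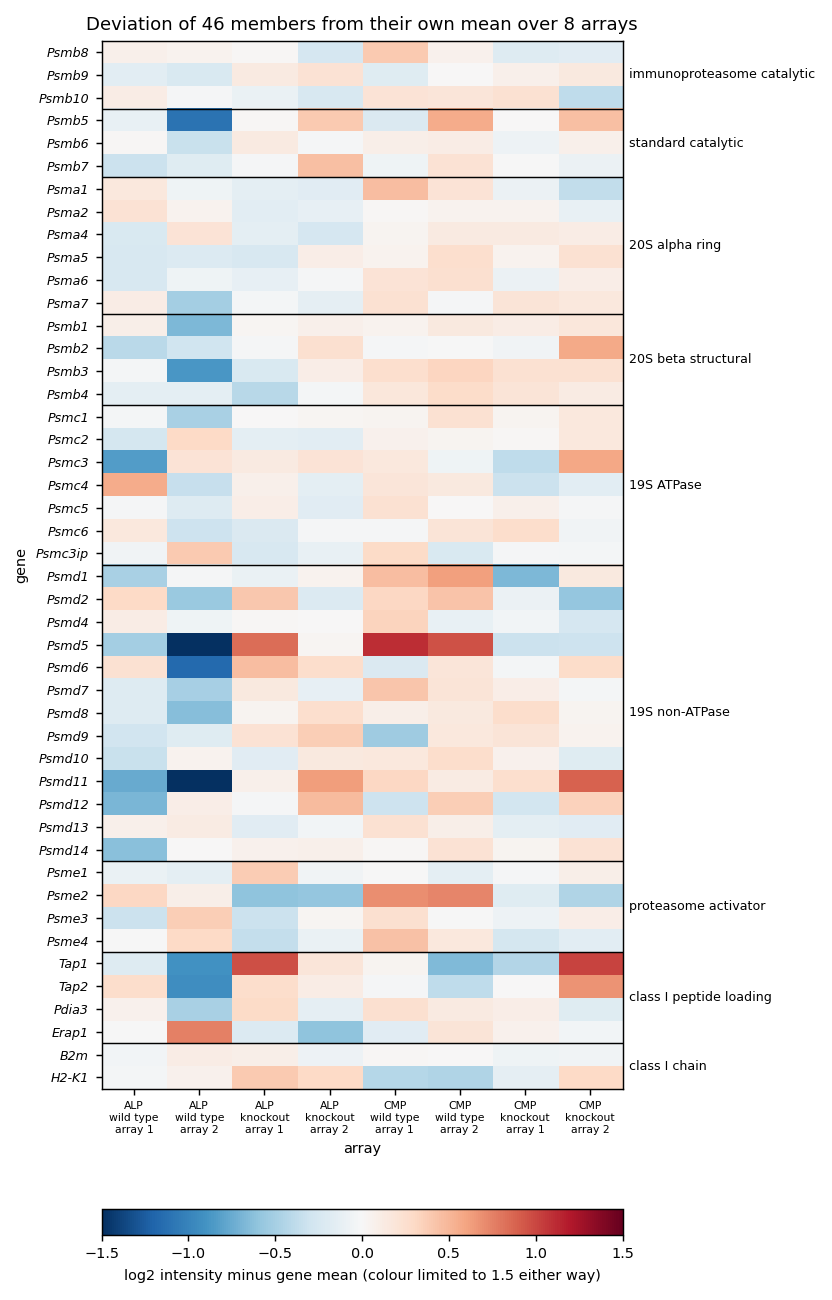
Deviation of each of the 46 members (rows, grouped by role) from its own mean over the 8 arrays (columns), in log2 units, with red above and blue below the mean. Blue is concentrated in the wild-type ALP array 2, most of all in Psmd5, Psmd11, Psmd6 and Psmb5, and Psme2 is blue on the 4 knockout arrays.

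Over all members the median change in knockout ALP was 0.222, with 29 of 46 above 0 against 51.4% of all features. Knockout and wild-type ALP did not overlap, with knockout higher, in 15 members (32.6%) against 22.3% of all features, and with knockout lower in 9 members (19.6%) against 19.7%. Without the wild-type ALP array 2 the median was 0.047. In CMP the median was -0.05, with 27 of 46 below 0 against 50.2% of all features. There 16 members (34.8%) were lower in knockout without overlap, against 19.1% of all features, and 3 members (6.52%), H2-K1, Psmb9 and Tap2, were higher, against 19.7%. Under median scaling the median of all features in CMP was -0.143 and that of the members -0.298, with 40 of 46 below 0, so the count depends on the scaling. All 4 knockout arrays were below all 4 wild-type arrays in 5 members (10.9%), Psma1, Psmb8, Psmd13, Psme2 and Psme4, against 2.51% of all features. Compared within each progenitor, knockout was lower in both without overlap in the same 5 members, against 4.9% of all features. Psme4 is counted by its brighter probe, and its second probe changed in the opposite direction. Psmd5 and Psmd7, a lid subunit, differed in opposite directions in ALP and CMP without overlap, which 5.99% of all features did. In the difference between the ALP and CMP effects, 10 of 46 members were below 0 (21.7%) against 47.8% of all features, with a member median of 0.244 against 0.033 over all features. These comparisons share arrays, and their values are not independent.

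**Figure D4:**
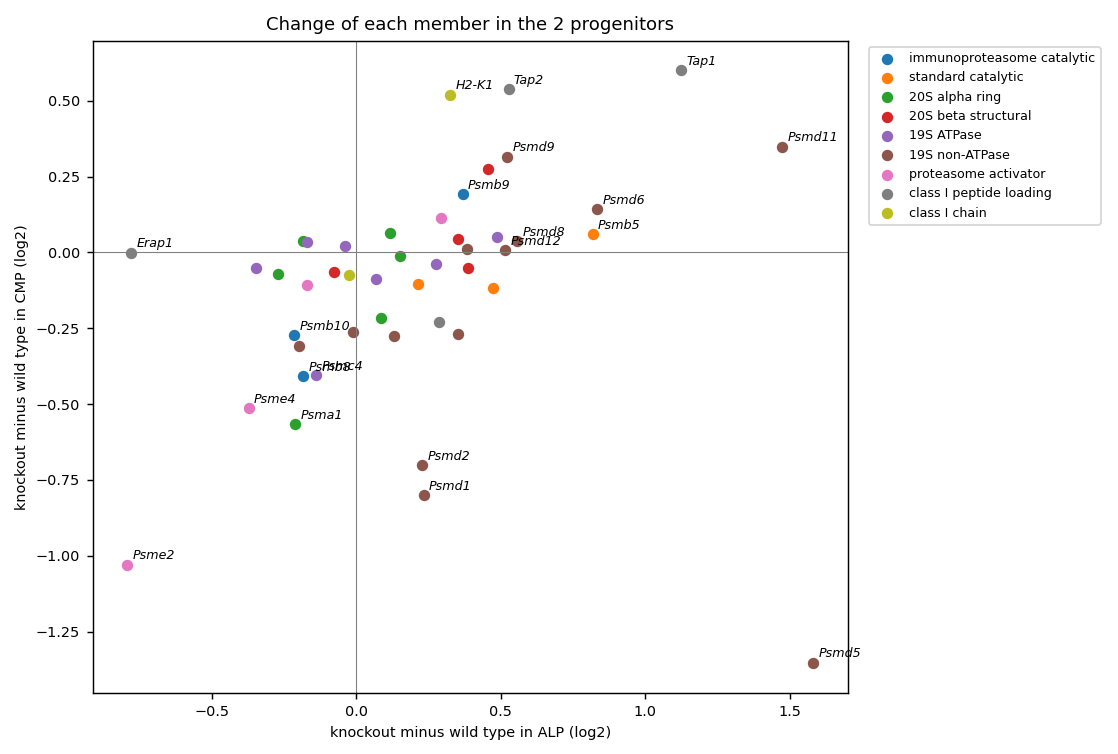
Knockout minus wild type in ALP (horizontal axis) against the same in CMP (vertical axis), in log2 units, for the 46 members coloured by role. Psme2 lies at -0.79 and -1.03, Psmd5 at 1.58 and -1.35, Psmd11 at 1.48 and 0.35 and Tap1 at 1.12 and 0.60, and most other members cluster closer to 0.

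In wild-type cells the members read lower in ALP than in CMP. Of the 46, 41 were below 0 (89.1%) against 51.3% of all features, with a median of -0.297 against -0.021, and 41 of 46 were also below 0 under median scaling. The 2 groups did not overlap, with ALP lower, in 21 members (45.7%) against 23.3% of all features, and with ALP higher in 1 member (2.17%), H2-K1, against 20.5%. H2-K1 differed by 0.46 ± 0.28, adjusted p 0.491. All 13 of the 19S non-ATPase genes were below 0 with a median of -0.45, as were the 4 beta structural genes with a median of -0.38, the 3 standard catalytic genes with a median of -0.33 and the 3 immunoproteasome genes with a median of -0.15. Psmd5 differed by -2.18 ± 0.46, unadjusted p 0.00173 and adjusted p 0.0769, the smallest adjusted p of any member in any comparison, and Psmd11 by -1.34 ± 0.39, unadjusted p 0.00894 and adjusted p 0.168. Without the wild-type ALP array 2 the differences were -1.54 and -0.97. Without array 1 both passed, with differences of -2.82 and -1.72 and adjusted p of 0.0113 and 0.0411, but there array 2 stood alone, was assumed to vary like the other groups, and did not detect Psmd5 above background.

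Both wild-type groups lay off the members' own means. The 46 members deviated from their own means over the arrays by -0.109 and -0.256 on average on the wild-type ALP arrays and by 0.132 and 0.136 on the wild-type CMP arrays, with the other arrays between -0.027 and 0.079. By the median over members the deviations were -0.048 and -0.164 on the wild-type ALP arrays and 0.127 and 0.149 on the wild-type CMP arrays. Array 2 of wild-type ALP was the lowest of the 8 for 18 members (39.1%) against 25.1% of all features, and both wild-type ALP arrays were below the other 6 for 8 members (17.4%) against 10.1%. Without array 2 the median was -0.158, with 38 of 46 below 0, and without array 1 it was -0.298, with 35 of 46 below 0. In knockout cells ALP and CMP were closer, with 25 of 46 members below 0 (54.3%) against 49.5% of all features and a median of -0.02. There ALP was higher without overlap in 5 members (10.9%) against 20.3%, and lower in 11 members (23.9%) against 19.1%.

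**Figure D5:**
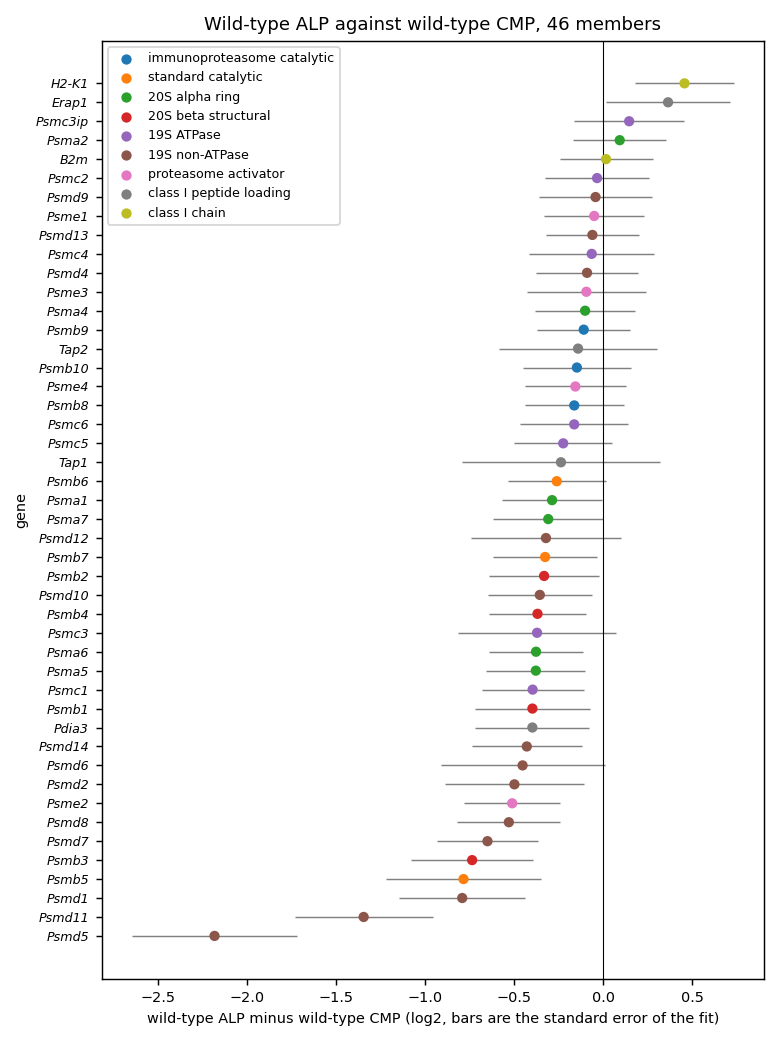
Wild-type ALP minus wild-type CMP in log2 units (horizontal axis) for each of the 46 members, sorted by value and coloured by role; horizontal bars are the standard error of the fit. The points of 41 members lie left of 0, from Psmd5 at -2.18, and H2-K1 is the highest at 0.46.

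Genes that serve the same pathway were measured beside the members. Of 15 tested assembly factors and cofactors, 0 passed in any comparison, and 14 were below 0 in wild-type ALP against CMP, with a median of -0.41. Psmg1, a chaperone of the alpha ring, read 7.72 and 8.03 in wild-type and 8.92 and 8.81 in knockout ALP, and 9.11, 8.95, 9.22 and 9.38 on the CMP arrays. Only the wild-type ALP arrays were low, with a change of 0.99 ± 0.27 in ALP, adjusted p 0.210, and -1.15 ± 0.27 between the wild types, adjusted p 0.104. Of 15 other class I pathway genes, 0 passed in any comparison, with medians of -0.02 in ALP and -0.07 in CMP.

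Of 21 tested genes of interferon signalling and class I transcription, 1 passed in 1 comparison. This was Spi1, the ETS partner PU.1 with which IRF-8 binds DNA. It was lower in wild-type ALP than in wild-type CMP by -1.98 ± 0.36, adjusted p 0.0484. It read 7.32 and 6.47 in wild-type and 8.33 and 8.53 in knockout ALP, and 9.05, 8.71, 8.54 and 8.93 on the CMP arrays. With 1 array left out its adjusted p ran from 0.0119 to 0.259, and it passed only without the wild-type ALP array 1. Of 30 interferon response genes 0 passed, with 20 below 0 and a median of -0.26 for knockout against wild-type ALP, and 15 below 0 for CMP. Members of that list went both ways. Ifi27 was lower in knockout ALP, by -2.23 ± 0.50, adjusted p 0.152. Ube2l6 was lower in knockout CMP, where it was not detected, against 6.63 and 6.99 in wild-type CMP, adjusted p 0.196. In the other direction, Oas2 was not detected in wild-type CMP and read 8.66 and 7.24 in knockout CMP, adjusted p 0.701.

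Marker genes of other programmes were summed beside the members. The summed linear intensity of 11 MHC class II pathway genes was 13151 to 14114 in wild-type and 2588 to 2931 in knockout CMP, and 4329 to 4400 against 3824 to 4426 in ALP. All 11 were below 0 in knockout CMP and 3 passed. H2-Aa, a class II chain, read 10.89 and 10.85 in wild-type CMP and was not above background on either knockout CMP array. It was at least 41.9-fold lower there, adjusted p 0.00640, a bound set by the lowest signal detected on each knockout array. Cd74, the invariant chain, read 11.84 and 11.73 in wild-type CMP and was detected on 1 of the 2 knockout CMP arrays, at 6.52, adjusted p 0.00640. With 1 CMP array left out the adjusted p ran from 0.117 to 0.144 for H2-Aa and from 0.0263 to 0.162 for Cd74. The 8 tested dendritic cell markers summed to 2114 to 2209 in wild-type and 1267 to 1519 in knockout CMP, where 5 were below 0 and 3 above. Only Id2 passed, with a change of -4.13 and adjusted p 0.00888. It read 9.65 and 9.44 in wild-type CMP and was detected on 1 knockout CMP array, at 5.66. With 1 CMP array left out its change ran from -4.38 to -3.88 and did not pass. Itgax read 6.24 and 6.77 in wild-type and 7.41 and 7.36 in knockout CMP. Tcf4 read 9.40 and 9.59 in wild-type and 10.03 and 9.65 in knockout CMP. Id2 and Tcf4 were the brightest of these markers in wild-type CMP and weighed most in its sums. The 21 tested cell cycle genes summed to 19178 to 21197 in wild-type and 15777 to 17057 in knockout CMP, where 20 were below 0 with a median of -0.37 and 0 passed. The erythroid and megakaryocyte list summed to 3936 and 6333 in wild-type and 3804 and 5403 in knockout CMP, with overlap. Its brightest gene, Gp9, read 12.18 and 11.54 in knockout CMP and made up most of each sum, so the sums tell little of the others. Markers including Hba-a1, Epor and Ppbp were not detected. Aqp1, Mfsd2b, Ermap and Gp5 read 8.58, 9.10, 7.39 and 7.77 on the wild-type CMP array 2 and at most 5.42 on array 1. Car2 read 9.49 on array 2 and 7.22 on array 1. The list was not uniform: Hbb-b1 and Gp1bb read 5.48 and 6.07 on array 2 and were higher on array 1, at 6.24 and 7.06. Gp9 and Itga2b read 12.01 and 5.79 on array 2 and 11.73 and 5.57 on array 1. What part these differences had in the members' values was not tested.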

How the data were processed

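Bone marrow progenitor RNA was read on 8 Illumina arrays, 2 in each of 4 groups taken from the labels. The authors deposited a scanner table of probe intensity with a detection p-value per probe, and a gene table of log2 values; its quantile normalisation and merging of a gene's probes were seen from the values, and no source used here gives the other steps. Gene names are absent from the scanner table, so probes were named where their quantile-normalised log2 values matched a gene's deposited values within 0.0003, which linked 17430 of 18132 genes (96.1%). With the values of genes shuffled, 0 of 2000 genes were matched by 1 probe, 0 of 500 by 2 and 1 of 300 by 3. One column of detection p-values lacks a replicate number and was given to the array left over, whose intensity it never rose with.

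Intensities were background-corrected and quantile-normalised with limma 3.58.1 (neqc, offset 16) in R 4.3.3. Probes had to be detected (p under 0.05) on 2 or more arrays, and the brightest per gene was used, giving 12781 features (9427 named). A model of 4 group means over all arrays gave moderated tests with Benjamini-Hochberg adjustment within each comparison at 0.05, with 4 residual and 3.69 prior degrees of freedom. An exact permutation test of 2 against 2 arrays cannot go below 0.333. The code was tested on simulated data with no other group differences, where 200 features were moved by 2 log2 units in knockout ALP. It recovered 79 of them (39.5%) and called 2 unchanged features, and smaller changes were not simulated.

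The members and all gene lists were chosen with earlier results of these data known. Array values are given for the catalytic, PA28 and class I genes and for the 2 members with the largest change per comparison in each remaining list; Psmd6, Psmd7 and Psme3 were named after their values were seen. Promoters came from RefSeq (GRCm38.p6). Replicate numbers did not pair the arrays (correlations of deviations from -0.093 to 0.075). Alternatives covered background, scaling, filters, probe choice, the authors' table, weights and left-out arrays. The number of arrays limits the precision. Some items are not reported here.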

Additional observations from a re-analysis of the deposited data

Results flagged for a closer look

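The knockout effect on Psmd5 was above 0 on every ALP comparison of arrays and below 0 on every CMP one, and the ALP effect minus the CMP effect was 2.94 log2 units. The interaction was tested in limma and its adjusted p was 0.396, so it did not pass. The gene rests on 1 of its 2 probes, since the other was detected on 0 arrays.

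Psmd7 was picked out in the same way, with an ALP effect minus CMP effect of 0.62 log2 units. It read 9.49 and 9.20 in wild-type and 9.84 and 9.56 in knockout ALP, and 10.11 and 9.88 in wild-type and 9.79 and 9.66 in knockout CMP. The interaction had an adjusted p of 0.809, and a second probe gave a CMP change of 0.02 where the first gave -0.27.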

How the results depend on the processing

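Counts are features past the threshold, in the order knockout against wild type in ALP, the same in CMP, their difference, wild-type ALP against CMP, and knockout ALP against CMP. As reported they were 16, 14, 1, 186 and 7. They were 6 (ALP), 0 (difference) and 3 (knockout cells) without a filter, and 31 (ALP) under the stricter filter. Array weights gave 6, 28, 2, 96 and 23, an intensity trend with robust fitting gave 34 (ALP) and 5 (difference), and the authors' table gave 8 (CMP) and 3 (knockout cells). Median scaling gave 22 (CMP) and 0 (difference), no background correction 8 and an offset of 50 gave 2 (difference). The 4 arrays of a comparison alone gave 0 in ALP, in the wild types and in the knockout cells. The replicate block gave 0, 6, 0, 120 and 0, and since the numbers did not pair the arrays it is not read as a weaker effect. Leaving out 1 array gave 0 to 1028, 0 to 23, 0 to 73, 0 to 1280 and 0 to 10, with 1028, 73 and 1280 all without wild-type ALP array 1. Members past the threshold numbered 0 to 3 in ALP, 0 to 1 in the difference and 0 to 2 in the wild types when 1 array was left out, and 0 under every other alternative. The immunoproteasome score in ALP stayed between -0.70 and -0.32. This covers the other backgrounds, scaling, filters, probe choice and gene table, and leaving out 1 array. It also covers leaving out Psmb8, Psmb9 or Psmb10, a step chosen after seeing the data. The standard subunits Psmb5, Psmb6 and Psmb7, in which the ALP gap lay, were not left out in turn. In CMP the score ranged from -0.32 to 0.10. With 2 arrays a group, most members' changes were within 2 standard errors of 0.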
